A study of Homo sapiens with 6 samples.

Results

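Plasminogen activation and membrane serine proteases were followed in SW480 cells, a human colorectal adenocarcinoma line, as a set of 9 listed genes: the activators PLAU and PLAT, the receptor PLAUR, the inhibitor SERPINE2, the transmembrane proteases ST14, TMPRSS2 and TMPRSS4, and the Kunitz inhibitors SPINT1 and SPINT2. Of these, 8 have a row of their own among the 59192 features of the deposited table, matched by Ensembl identifier. Of the features, 25927 carry an Ensembl identifier and 33265 carry other identifiers. Whether reads of a listed gene lie under one of the latter was not tested. SPINT2 has no row under its identifier (ENSG00000167642) and was not analysed here. RNA was sequenced from 3 libraries of SW480-45, the HPSE-knockdown line, and 3 libraries of SW480-NC, the control line, each from an independent experiment. Both lines carry Cas9 under puromycin selection and a lentiviral guide with EGFP, directed against HPSE in SW480-45 and to a control sequence in SW480-NC. SW480-45 was taken as the line the study calls SW480-KD1, the only knockdown line it names for sequencing. Each arm is 1 stable line, so a property of the line and an effect of the guide cannot be told apart.

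Urokinase (PLAU) and tissue plasminogen activator (PLAT) cut plasminogen into plasmin, a broad protease that breaks down fibrin and matrix proteins. The urokinase receptor (PLAUR) holds urokinase at the cell surface, while the serpin protease nexin-1 (SERPINE2) traps urokinase, plasmin and thrombin. Matriptase (ST14), TMPRSS2 and TMPRSS4 are type II transmembrane serine proteases of epithelia, and matriptase is held in check by the Kunitz inhibitors HAI-1 (SPINT1) and HAI-2 (SPINT2). In the colon, these proteases act on growth factor precursors, ion channels and protease-activated receptors at the surface of epithelial cells.

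The libraries held between 33221323 and 39802365 reads on the features. HPSE, against which the guide was directed, measured 136, 172 and 146 normalized counts in SW480-45 and 270, 295 and 246 in SW480-NC. The RNA level in SW480-45 was thus 56.1% of that in SW480-NC (log2 fold change −0.83, standard error 0.14, adjusted p = 0.0547 from limma), with no overlap between the lines. The study assessed the knockdown on HPSE protein by western blot, which these RNA values do not measure. Of 10 colon epithelial markers, 8 had a row. EPCAM was abundant, at a mean of 18111 normalized counts, whereas the intestinal markers CDH17 and GPA33 were at means of 0.530 and 2.77. CDX2, another of these markers, was at a mean of 31.4. KRT20, a keratin of differentiated colon cells, fell from 7952 ± 619 normalized counts to 4541 ± 82.3 (SD, n = 3; limma adjusted p = 0.00719). Of the other 5 markers tested, 0 had an adjusted p under 0.05. At an unadjusted p under 0.05, KRT8 was lower in SW480-45 (log2 fold change −0.21) and VIL1, a protein of the brush border, was higher (0.20). The part of these markers in the results below was not tested. The summed fibroblast markers ranged from 280 to 387 normalized counts in SW480-45 and from 229 to 264 in SW480-NC, nearly all from COL1A1, while COL1A2 and LUM were at means under 1.

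No member passed the adjusted threshold in the comparison of the lines. The receptor PLAUR and the inhibitor SERPINE2 had lower values in SW480-45, and the transmembrane protease TMPRSS4 had higher values, in each case with the 3 libraries of one line apart from the 3 of the other. The abundant protease ST14 differed little. The test was limma on log2(normalized count + 1), adjusted by Benjamini-Hochberg for the 21703 features that averaged 10 normalized counts or more. Of these features 12662 carry an Ensembl identifier, so the shares of all features are not shares of annotated genes alone. By limma, 0 of the 8 members had an adjusted p under 0.05, against 0.802% of all features tested. The same count was 0 in edgeR and 3 in DESeq2 on the reads recovered from the values, where 0.627% and 3.48% of all features were called. At an unadjusted p under 0.05, 3 of the 8 members were found with limma against 16.2% of all features. Of these, 2 were lower (8.15% of all features) and 1 was higher (8.1%). The lines did not overlap for 4 of the 8 members, against 23.4% of all features. The members were chosen with earlier results of these data known, which these shares do not allow for. The members' log2 fold changes (SW480-45 minus SW480-NC) ranged from −0.65 to 0.70 with a median of 0.17, where the median of all features was −0.0048, and 0 of the 8 reached a 2-fold change.

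**Figure D1:**
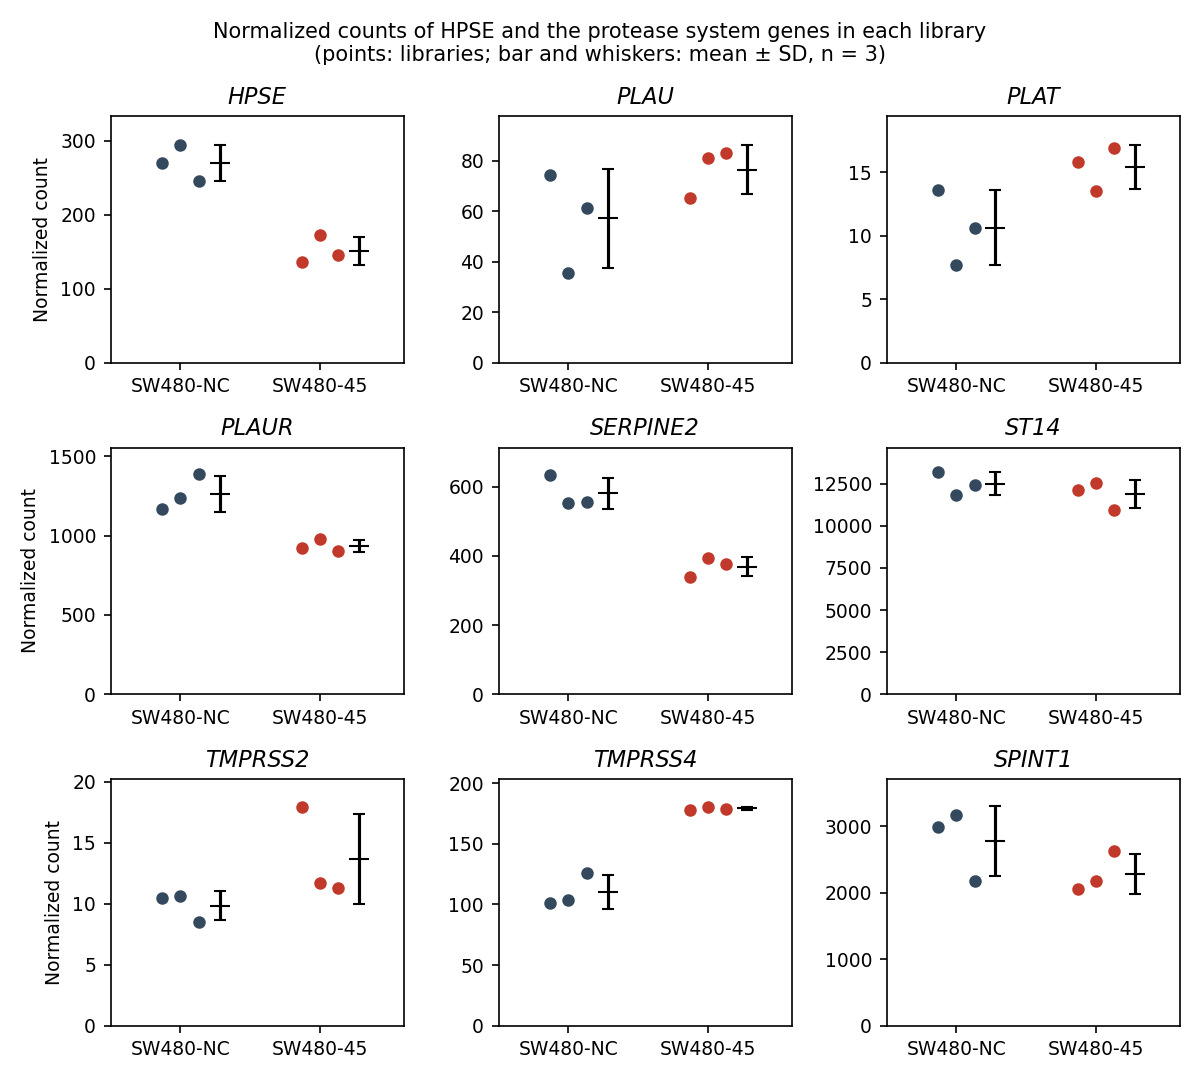
Normalized counts (y axes, linear from 0, one scale per gene) of HPSE and the 8 members in the 3 SW480-NC and 3 SW480-45 libraries. Points are libraries, and the bar with whiskers is the mean ± SD (n = 3). PLAUR and SERPINE2 lie lower and TMPRSS4 and TMPRSS2 higher in every SW480-45 library, and the other members overlap between the lines.

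PLAU, on the plus strand of chromosome 10 (GRCh38, 73909177 to 73917497), had 65.4, 81.3 and 82.9 normalized counts in SW480-45 and 74.3, 35.7 and 61.5 in SW480-NC. SW480-NC replicate 2 was the lowest library, SW480-NC replicate 1 lay inside the range of SW480-45, and the lines overlapped. The mean was 76.5 ± 9.69 in SW480-45 and 57.2 ± 19.6 in SW480-NC (SD, n = 3), a log2 fold change of 0.47 with a 95% interval from −0.20 to 1.14 (adjusted p = 0.463 from limma). The interval spans 0 and a 2-fold rise. SW480-NC replicate 2 weighed most on the value, which was 0.17 without it. PLAU overlaps the gene C10orf55 on the opposite strand, which had at most 2 reads in any library.

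PLAT, on chromosome 8 (42175233 to 42207724), was near the lower limit of the test. It had 15.8, 13.5 and 17.0 normalized counts in SW480-45 and 13.6, 7.73 and 10.6 in SW480-NC, from 8 to 18 reads per library. The lowest SW480-45 library and the highest SW480-NC library were almost equal, so that the lines overlapped slightly. This gave a log2 fold change of 0.52 with a 95% interval from −0.38 to 1.43 (adjusted p = 0.550 from limma), and of 0.33 without SW480-NC replicate 2. Counting alone gives a coefficient of variation of 25.0% at the mean of 16 reads in SW480-45, and 31.1% at 10.3 reads in SW480-NC.

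PLAUR, on the minus strand of chromosome 19 (43646095 to 43670547), had 921, 979 and 906 normalized counts in SW480-45. The SW480-NC libraries had 1168, 1236 and 1389. Every SW480-45 library was lower than every SW480-NC library. The mean was 935 ± 38.5 in SW480-45 and 1265 ± 113 in SW480-NC (SD, n = 3), which left 74.0% of the control level. The log2 fold change was −0.43 (standard error 0.09, 95% interval −0.65 to −0.21), with an unadjusted p of 0.00214 and an adjusted p = 0.101 from limma. The adjusted p was 0.106 in edgeR and 0.0150 in DESeq2. As values in bulk RNA, these cannot tell fewer cells expressing a gene from less of its RNA per cell, which holds for every member.

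SERPINE2, on the minus strand of chromosome 2 (223975112 to 224039319), had the smallest unadjusted p of the members. It had 338, 394 and 375 normalized counts in SW480-45 and 633, 553 and 556 in SW480-NC, with a wide gap between the lines. The mean was 369 ± 28.1 in SW480-45 and 581 ± 45.2 in SW480-NC (SD, n = 3), or 63.6% of the control level. The log2 fold change was −0.65 (standard error 0.11, 95% interval −0.91 to −0.39, unadjusted p = 0.000443), with an adjusted p = 0.0525 from limma. The adjusted p was 0.0639 in edgeR and 0.000632 in DESeq2, and between 0.0804 and 0.191 in limma with 1 library left out. By the mean absolute difference of their centred log2 values over the 6 libraries, the genes most like SERPINE2 among 9703 compared were PCSK5 (0.0597), PDE4D (0.0603) and F5 (0.0658), a description over few libraries that includes the difference between the lines.

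The starts of PLAUR and SERPINE2 are shown because these members had the clearest lower values of those for which RefSeq windows were at hand. The RefSeq table (GRCh38.p14) matched 4 of the 9 listed genes, PLAU, PLAUR, SERPINE2 and SPINT1. The 250 bases before each RefSeq start were searched on both strands for short motifs. By the gene positions given in this report, the windows of PLAU, PLAUR and SERPINE2 lie inside these genes. The sequence before the outermost annotated starts of these genes was therefore not searched. For SPINT1, the first window begins before the gene and the other lies inside it. Matches to AP-1 (TGANTCA) and CCAAT boxes (CCAAT) do not overlap in these windows and are in capitals below. GC boxes (GGGCGG), E-boxes (CACGTG) and TATA boxes (TATAAA) were searched as well and are not marked. AP-1 factors bind the promoters of many matrix protease genes.
PLAUR, chr19:43670170-43670419, minus strand: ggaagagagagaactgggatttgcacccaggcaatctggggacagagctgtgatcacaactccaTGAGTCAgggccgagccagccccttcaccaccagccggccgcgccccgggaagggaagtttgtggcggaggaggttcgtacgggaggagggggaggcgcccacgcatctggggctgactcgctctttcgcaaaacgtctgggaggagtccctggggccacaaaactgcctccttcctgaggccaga
SERPINE2 upstream start, chr2:224038641-224038890, minus strand: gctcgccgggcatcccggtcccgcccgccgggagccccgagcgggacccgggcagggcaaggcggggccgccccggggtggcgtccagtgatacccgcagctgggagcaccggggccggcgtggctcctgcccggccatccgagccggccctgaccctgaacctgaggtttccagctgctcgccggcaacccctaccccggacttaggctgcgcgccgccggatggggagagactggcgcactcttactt
SERPINE2 downstream start, chr2:224031479-224031728, minus strand: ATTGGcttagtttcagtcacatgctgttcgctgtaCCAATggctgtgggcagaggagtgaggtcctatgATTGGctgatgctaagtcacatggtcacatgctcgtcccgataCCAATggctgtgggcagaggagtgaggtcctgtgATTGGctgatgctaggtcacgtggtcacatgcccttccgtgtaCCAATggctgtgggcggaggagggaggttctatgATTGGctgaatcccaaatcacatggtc
The PLAUR window holds 1 AP-1 match, which begins 186 bases before the start. Of 35116 RefSeq windows of the same length, 6.57% hold at least 1 such match. The upstream SERPINE2 window, with 75.2% G and C, holds no AP-1 or CCAAT match, and 2 GC boxes. The downstream SERPINE2 window holds 7 CCAAT boxes in alternating orientation, 34, 35 or 43 bases apart, and also 1 GC box and 1 E-box. The letters around the CCAAT boxes recur with some changes, as a tandem repeat, so these matches are not independent of one another. A CCAAT box is present in 32.0% of all windows, and 7 or more are present in 7 windows (0.0199%), a share that does not allow for such repeats. The PLAU windows hold no AP-1 match and 1 CCAAT box, and the SPINT1 windows hold neither motif. PLAU and SPINT1 each have 3 GC boxes in 1 window. A match describes these letters only, and reads per start were not measured here.

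**Figure D2:**
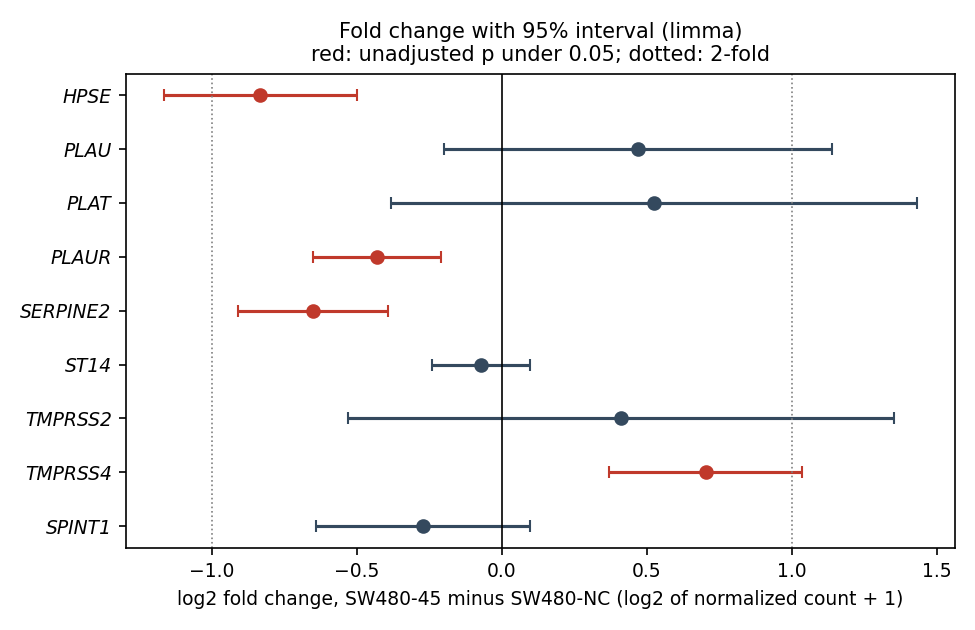
Log2 fold change (x axis, SW480-45 minus SW480-NC, on log2 of normalized count + 1) with its 95% interval from limma for HPSE and the 8 members. The intervals of HPSE, PLAUR and SERPINE2 lie below 0 and that of TMPRSS4 above 0, all with an unadjusted p under 0.05 and an adjusted p above it, and ST14 has the narrowest interval.

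ST14, on chromosome 11 (130159562 to 130210376), was the most abundant member. It had 12114, 12565 and 10966 normalized counts in SW480-45 and 13192, 11841 and 12434 in SW480-NC. The lowest library was SW480-45 replicate 3 and the highest SW480-NC replicate 1, but the lines overlapped. This gave a log2 fold change of −0.07 with a 95% interval from −0.24 to 0.10 (adjusted p = 0.659 from limma), so a 2-fold difference in either direction lies far outside it. The coefficient of variation was 6.94% within SW480-45 and 5.42% within SW480-NC, against 0.900% and 0.905% from counting alone.

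TMPRSS4, also on chromosome 11 (118077012 to 118121890), had 178, 181 and 179 normalized counts in SW480-45 and 101, 103 and 126 in SW480-NC. All SW480-45 libraries were higher, and SW480-NC replicate 3 was the nearest to them. The mean was 179 ± 1.24 in SW480-45 and 110.3 ± 13.8 in SW480-NC (SD, n = 3), a ratio of 1.62. The log2 fold change was 0.70 (standard error 0.14, 95% interval 0.37 to 1.03, unadjusted p = 0.00133), with an adjusted p = 0.0861 from limma, 0.0990 in edgeR and 0.0201 in DESeq2. The spread within SW480-45 was smaller than counting alone gives, with a coefficient of variation of 0.689% against 7.33% at a mean of 186 reads.

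TMPRSS2, on the minus strand of chromosome 21 (41464551 to 41531116), was low in both lines. It had 17.9, 11.7 and 11.3 normalized counts in SW480-45 and 10.5, 10.6 and 8.48 in SW480-NC. The lines did not overlap, yet the values rest on 17, 13 and 12 reads against 10, 11 and 8. The log2 fold change was 0.41 with a 95% interval from −0.53 to 1.35 (adjusted p = 0.654 from limma). It was 0.21 without SW480-45 replicate 1, and DESeq2 gave no adjusted p for this gene or PLAT.

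SPINT1, on the plus strand of chromosome 15 (40844018 to 40858207), had 2051, 2172 and 2621 normalized counts in SW480-45 and 2988, 3167 and 2172 in SW480-NC. SW480-NC replicate 3 equalled SW480-45 replicate 2 to the nearest count, while the other SW480-NC libraries were the highest of all. The mean was 2281 ± 300.3 in SW480-45 and 2776 ± 531 in SW480-NC (SD, n = 3), a log2 fold change of −0.27 with a 95% interval from −0.64 to 0.10 (adjusted p = 0.440 in limma). Leaving out SW480-NC replicate 3 made it −0.44, with an unadjusted p of 0.00905 (adjusted p = 0.158 in limma). Leaving out SW480-NC replicate 2 made it −0.17, with an unadjusted p of 0.354 in limma. The antisense gene SPINT1-AS1 shares exon sequence with SPINT1. It had 143, 148 and 136 normalized counts in SW480-45 and 135, 102 and 162 in SW480-NC, far under SPINT1. How strand entered the counting is not given in the sources used here, so reads of the pair may have been exchanged.

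Per exonic length (normalized counts per kb of exon, union of GENCODE 29 exons), the order of the members in SW480-NC was ST14 at 2871 ± 156, SPINT1 at 784 ± 150, PLAUR at 284 ± 25.4, SERPINE2 at 65.3 ± 5.09, PLAU at 19.4 ± 6.65, TMPRSS4 at 11.1 ± 1.38, TMPRSS2 at 1.61 ± 0.195 and PLAT at 1.61 ± 0.444 (SD, n = 3). The transmembrane protease and its inhibitor thus stood above the receptor, and the receptor above both plasminogen activators. Neighbours in this order were separated in all libraries except PLAU and TMPRSS4, and TMPRSS2 and PLAT, whose ranges overlapped. In SW480-45 the first 6 members kept their order, led by ST14 at 2731 ± 190 per kb (SD, n = 3). PLAU, at 25.9 ± 3.28, lay above TMPRSS4 in every SW480-45 library, and the ranges of PLAT and TMPRSS2 again overlapped. The order of PLAU and TMPRSS4 rests on the lengths used, 2.95 kb for PLAU and 9.95 kb for TMPRSS4. Without the division by length, TMPRSS4 had the higher mean in SW480-45, at 179 normalized counts against 76.5 for PLAU. SERPINE2, with a length of 8.89 kb, stood 3.37-fold over PLAU per kb in SW480-NC, and in SW480-45 it was at 41.5 ± 3.16 per kb (SD, n = 3). The lengths of the transcripts present were not measured.

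**Figure D3:**
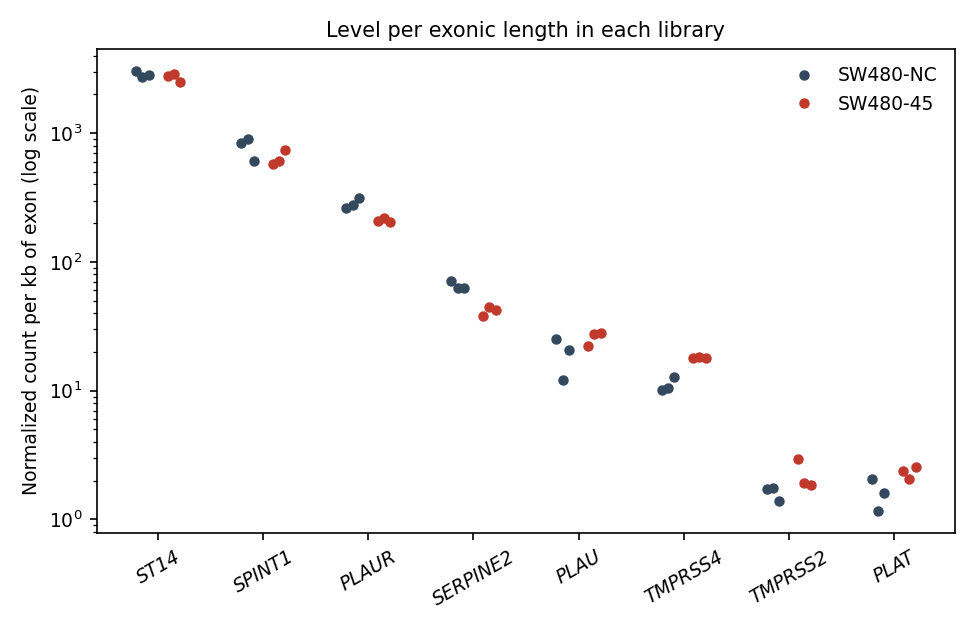
Normalized counts per kb of exon (y axis, log scale) of the 8 members in each library, ordered by their mean in SW480-NC. Points are libraries. ST14 lies near 2871 per kb in SW480-NC and PLAT and TMPRSS2 near 1.61, and the gap between SERPINE2 and PLAU is narrower in SW480-45.

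Ratios were taken within each library, on normalized counts + 1, so that its size factor enters only through the added 1. A ratio to SPINT2 could not be formed, since it has no row. The log2 ratio of PLAU to SERPINE2 was −2.35, −2.26 and −2.16 in SW480-45 and −3.07, −3.92 and −3.15 in SW480-NC. The SW480-45 libraries were all higher, and the difference of the means was 1.12. TMPRSS4 to SPINT1 was also higher in every SW480-45 library, by a mean of 0.97. An exact permutation test (two-sided) gave p = 0.1 for both of these ratios, or 0.167 adjusted over the 5 ratios computed. With 3 libraries per line p cannot go lower, so neither can reach 0.05. ST14 to SPINT1 differed by 0.20 (exact permutation p = 0.5), with overlapping lines, but leaving out SW480-NC replicate 2 gave 0.06 and leaving out replicate 3 of that line gave 0.36. PLAU to PLAT differed by −0.05 (exact permutation p = 0.8), also with overlap, and its sign turned with the added count and with the libraries used. A ratio to SERPINE2 or of TMPRSS4 carries the difference of that member given above and is not a separate finding.

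**Figure D4:**
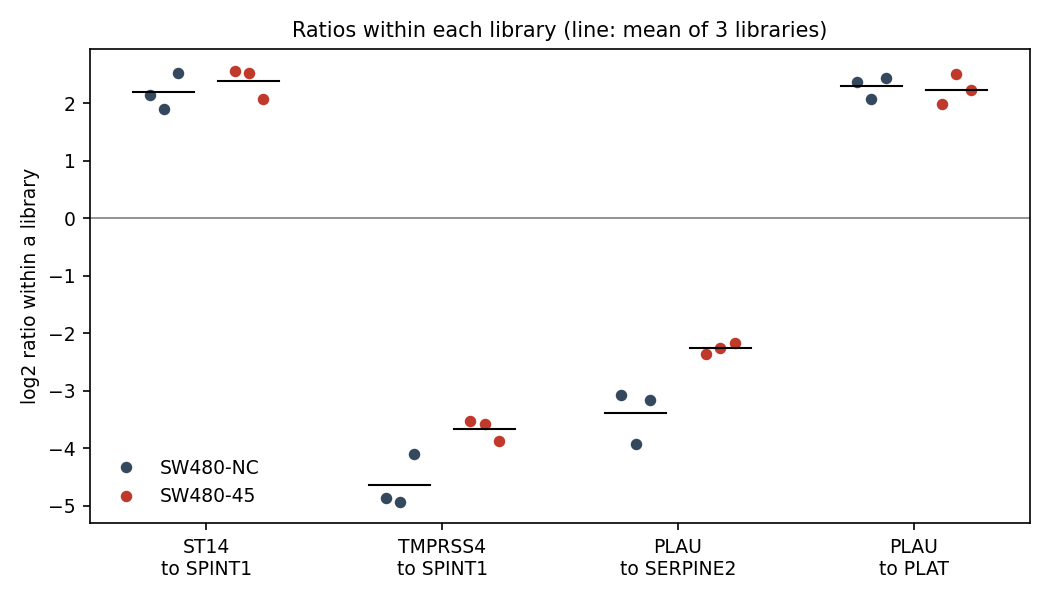
Log2 ratio of normalized counts (+ 1) of 2 genes within each library (y axis) for 4 pairs. Points are libraries and lines are means of 3. PLAU to SERPINE2 and TMPRSS4 to SPINT1 are higher in every SW480-45 library, and the other pairs overlap.

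Among other genes of the system, in 5 lists of proteases, receptors, substrates and inhibitors, 3 passed the adjusted threshold. Integrin alpha V and the receptor MET fell in SW480-45, and the inhibitor SPINK5 rose. Of 85 genes listed, 60 had a row and 44 were tested with limma, and the 3 called are 6.82% of these, against 0.802% of all features. At an unadjusted p under 0.05 there were 12 of 44, 6 higher and 6 lower (27.3%, against 16.2% of all features). The lists were chosen with earlier results of these data known, so neither share is an independent comparison with all features. With 1 library left out, 0 to 2 of these genes passed the adjusted threshold.

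Of the receptor partners and clearance receptors, 1 of 14 tested passed, ITGAV, a subunit of the vitronectin receptors that bind beside the urokinase receptor. It had 5436, 5182 and 5713 normalized counts in SW480-45 and 7613, 7706 and 6922 in SW480-NC, well apart (log2 fold change −0.45, standard error 0.07, adjusted p = 0.0437 from limma). With 1 library left out its adjusted p lay between 0.0515 and 0.177, so it held in 0 of these 6 fits. The other members with an unadjusted p under 0.05 are named after their values were seen. ITGA5, the alpha chain of the fibronectin receptor, had a log2 fold change of 0.90 and the endocytic receptor LRP1, which clears activators bound to serpins, had 0.23. ITGB1 had −0.27, as did S100A10, a partner of annexin A2 in plasminogen binding.

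Of the substrates and their receptors, 1 of 8 tested passed, MET, the receptor of hepatocyte growth factor, whose precursor matriptase and urokinase can cleave. MET had 24022, 23639 and 25047 normalized counts in SW480-45 and 30823, 31857 and 29598 in SW480-NC (log2 fold change −0.34, standard error 0.05, adjusted p = 0.0408 from limma). With 1 library left out, its adjusted p ranged from 0.0496, without SW480-NC replicate 3, to 0.174. The related receptor MST1R had a log2 fold change of −0.27, F2RL1, the protease-activated receptor that matriptase can cleave, had −0.16, and SCNN1A, the alpha subunit of the epithelial sodium channel, had 0.26, each with an unadjusted p under 0.05 and named after its value was seen.

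Of the other membrane-anchored serine proteases, 0 of 6 tested passed with limma and 1, PRSS8, had an unadjusted p under 0.05. Higher values in SW480-45 were seen for 5 of the 6, where the median log2 fold change of all features was −0.0048. This counts signs only, and a shift of the list was not tested. PRSS8, prostasin, a protease that acts in a cascade with matriptase, had 1150, 1088 and 983 normalized counts in SW480-45 and 805, 676 and 724 in SW480-NC, without overlap (log2 fold change 0.55, adjusted p = 0.0783 from limma, 0.0843 in edgeR and 0.00268 in DESeq2). None of those with a mean of at least 50 had a lower mean in SW480-45.

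Of the fibrinolysis and clotting genes, 0 of 7 tested passed with limma, and 0 had an unadjusted p under 0.05. The largest log2 fold changes among those with a mean of at least 50 were 0.30 for SERPINF2, the plasmin inhibitor, and −0.21 for F3, tissue factor, with adjusted p = 0.442 and 0.317 from limma. Plasminogen itself (PLG), named after its values were seen, had a mean of 0.349 normalized counts.

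Of the other epithelial inhibitors, 1 of 9 tested passed. SPINK5, a multidomain Kazal inhibitor, had 472, 359 and 385 normalized counts in SW480-45 and 178, 172 and 231 in SW480-NC, all higher in SW480-45. The log2 fold change was 1.07 (standard error 0.16), with an adjusted p = 0.0418 from limma and 0.0490 in edgeR, and between 0.0437 and 0.144 in limma with 1 library left out. It was the only gene of these lists to pass in edgeR. WFDC2, named after its values were seen, had a log2 fold change of 0.75 (unadjusted p = 0.00758 in limma).

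**Figure D5:**
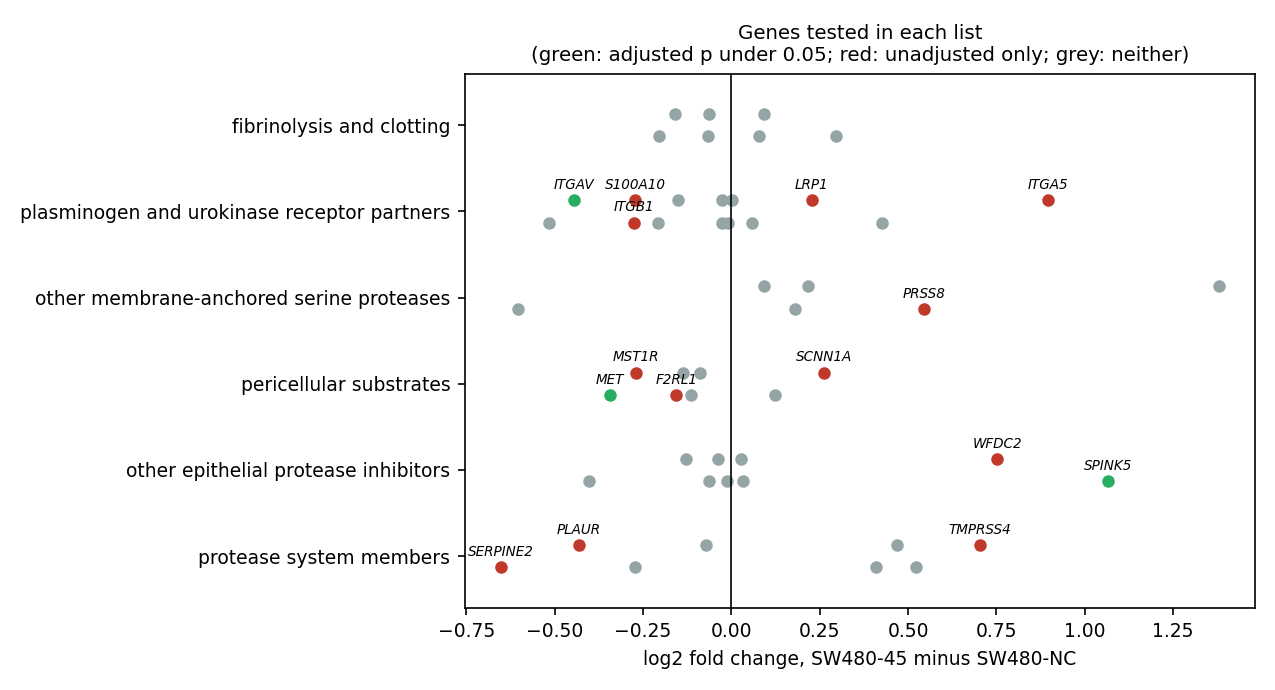
Log2 fold change (x axis, SW480-45 minus SW480-NC) of each gene tested in the 5 lists and among the members (y axis, one row per list, points shifted up or down only for legibility). Green points have an adjusted p under 0.05 from limma, red points an unadjusted p only, and the named points are ITGAV, MET and SPINK5 in green and 9 other list genes and 3 members in red.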

How the data were processed

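Total RNA of 3 SW480-45 and 3 SW480-NC libraries was sequenced on an Illumina HiSeq, and the submitters' processing notes name HISAT2, DESeq2 and the GRCh38 build. The deposited signal per feature holds read counts that the authors divided by 1 size factor per library. Whole reads were recovered for 100% of the values within 0.01 of a read. The counting tool, its strand setting and its annotation are not given in the sources used here. Positions and exonic lengths came from GENCODE 29.

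Features averaging 10 normalized counts or more (21703) were tested with limma 3.58.1 (intensity trend, R 4.3.3) on log2(value + 1), with Benjamini-Hochberg adjustment and a threshold of 0.05. Alternatives were edgeR 4.0.16 and DESeq2 1.42.0, fitted to the recovered reads, other filters, scalings and pseudocounts, a replicate block and leaving out each library. The script was tested on simulated data, with changes larger than those of the members and only in features averaging 50 normalized counts or more. This does not show how well it finds changes of the members' size. P-values measure the spread between experiments on 1 line each. Intervals cover this spread, counting error included, with the variance of each gene drawn toward the trend over all features. Counting error alone is given beside it for some members. Of 5 ratios computed within libraries, 4 are given, and 1 is not reported here. The members and lists were chosen with earlier results of these data known. Beside the members, the text names list genes with an adjusted p under 0.05, otherwise the largest rise and fall among genes with a mean of at least 50, and the 3 genes most like the member with the smallest p. Other list genes are named where 5 or fewer of a list had an unadjusted p under 0.05, or singly, after their values were seen.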

Additional observations from a re-analysis of the deposited data

How the results depend on the processing

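In limma, 174 of all features had an adjusted p under 0.05. The count was 756 with DESeq2, 11 without the intensity trend, and 36 to 104 with 1 library left out. No member passed with limma, but 1 (SERPINE2) passed with Ensembl genes only, with all features or with a mean of at least 50, and 3 passed with DESeq2. At an unadjusted p under 0.05, PLAUR, SERPINE2 and TMPRSS4 all passed in each of the 15 alternatives, and without SW480-NC replicate 3 SPINT1 made the count 4. HPSE (log2 fold change −0.83) had an adjusted p of 0.000948 in DESeq2, 0.0462 with Ensembl genes only, 0.0451 with all features and 0.0460 with a mean of at least 50. In the other 11 alternatives its adjusted p stayed above 0.05, from 0.0569 in limma with a pseudocount of 5 to 0.188 in limma without SW480-45 replicate 1. It was 0.0664 in edgeR. The change of HPSE ranged from −0.93 to −0.76 with 1 library left out. Of the other pathway genes, 3 passed in limma, 4 in DESeq2, 1 in edgeR, 0 without the trend, and 0 to 2 with 1 library left out. With 1 library left out, log2 fold changes ranged from 0.17 to 0.69 for PLAU, 0.33 to 0.70 for PLAT, 0.21 to 0.52 for TMPRSS2, −0.44 to −0.17 for SPINT1 and −0.11 to −0.02 for ST14, and the ratio of ST14 to SPINT1 from 0.06 to 0.36. The log2 ratio of PLAU to PLAT differed by −0.05, by 0.0383 with a pseudocount of 5, and by −0.19 to 0.0723 with 1 library left out.

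Libraries with the same replicate number showed no shared deviation, with correlations of 0.0025, −0.0202 and 0.0074. Whether they were prepared together is not given in the labels. With a replicate block, which leaves fewer degrees of freedom, 12 features passed in limma, 0 members and 0 other pathway genes among them. The adjusted p of HPSE in this limma fit was 0.169. The intervals of PLAT and TMPRSS2, with 8 to 18 reads per library, reached past a 2-fold change.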
